A study of Rattus norvegicus with 11 samples.

Results

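The genes of the mitochondrial ribosomal proteins were examined in pancreatic islets of young female rats whose fathers had eaten either chow or a high-fat diet (HFD). Members were the genes whose only symbol on the array's annotation begins with Mrpl (large subunit) or Mrps (small subunit) followed by a number, and each was read from its brightest probe. This gave 67 of the 14324 genes with a single symbol, namely 41 of the large and 26 of the small subunit. RefSeq's GRCr8 annotation holds 78 protein-coding genes with such symbols, and 11 of them, among them Mrps22, Mrps6, Mrpl28 and Mrpl58, were not analysed here. Mrps36 was not analysed here either.

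All animals were of the Sprague-Dawley strain, and the labels name no engineered allele. The chow-father group (6 arrays) came from fathers kept on standard chow with 9% fat, and the HFD-father group (5 arrays) from fathers given pellets with 43% fat. Fathers were 15 weeks old at mating, all mothers ate chow, and daughters of both groups ate chow from weaning at 3 weeks until islets were taken at 13 weeks, so the daughters' own diet did not differ. The series' design text describes the HFD-fed fathers as heavier, glucose intolerant and insulin resistant, and their daughters as glucose intolerant with a weaker early insulin response at a body weight like that of the other daughters. The labels do not say whether an array held the islets of 1 animal or of several, nor which animals shared a father, so a p-value here reflects only how much these samples vary, and that variation may be technical.

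Mitochondria carry their own ribosomes, which translate the few proteins still encoded by mitochondrial DNA, all of them core subunits of the respiratory chain and the ATP synthase. The ribosomal proteins themselves are nuclear genes, made in the cytosol and imported. The small subunit binds the messenger and reads its codons, while the large subunit joins amino acids and passes the chain to the inner membrane. Some members belong to bacterial ribosomal protein families and others arose in mitochondria. Beta cells depend on mitochondrial ATP production to couple glucose to insulin release, which is why this machinery is of interest in islets of glucose-intolerant animals.

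The values are log2 expression from 1-colour arrays, and every difference below is HFD-father minus chow-father on that scale. The median over all probes ran from 6.137 to 6.202 between arrays, and pairs of arrays correlated at 0.9869 to 0.9950. Sample numbers fall into a set of 8 arrays, 4 per group, and a later set of 3 with 2 chow-father arrays and 1 HFD-father array. The means of these sets agreed in every probe to within 5.83e-05, so the values had been centred per set. Islet markers were near the top of the scale in both groups, with Ins1 at 14.257 ± 0.054 (SD, n = 6) and 14.268 ± 0.035 (SD, n = 5), and 5 of 12 endocrine markers were higher in HFD-father arrays with a median difference of -0.0007. HFD-father 1 stood apart through its lymphocyte marker mean, 0.765 above the 11-array mean, where the other arrays lay between -0.175 and 0.044.

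The nuclear genes of mitochondrial proteins are known targets of the transcription factors NRF1, the ETS family member GABP and YY1, and RefSeq start regions (GRCr8, 250 bases before to 50 after the gene start) were found for 54 of the 67 members in 56 windows. The ETS letters CCGGAAG, on either strand, were in 18 of the 56 windows (32.1%), against 12.9% of the 12363 windows of genes measured here and 10.7% of all 21842 protein-coding windows. The YY1 letters AAGATGGCG were in 9 windows (16.1%, against 2.6% and 2.07%), and the NRF1 letters GCATGCGC in 5 (8.93%, against 3.86% and 3.11%). GGGCGG, bound by SP1, was in 29 (51.8%, against 50.1% and 41.8%). No window had ETS and YY1 letters that overlapped each other. The motif shares are a property of the gene sequences and were not tested, and a match is not a bound site.

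The 100 bases before the start of 4 members described below are shown to make these letters visible, read 5′ to 3′ on the gene's strand with matches to the NRF1 or ETS letters in capitals. Mrpl32 (chr17:55260551-55260650, plus strand) holds NRF1 letters, which read nearly the same on both strands. Mrps18a (chr9:22367381-22367480, minus strand), Mrpl27 (chr10:80092245-80092344, plus strand) and Mrps27 (chr2:32474104-32474203, plus strand) each hold the ETS letters, in Mrps27 on the opposite strand.
Mrpl32: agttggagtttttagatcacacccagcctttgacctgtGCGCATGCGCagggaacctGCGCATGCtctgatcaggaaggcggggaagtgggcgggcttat
Mrps18a: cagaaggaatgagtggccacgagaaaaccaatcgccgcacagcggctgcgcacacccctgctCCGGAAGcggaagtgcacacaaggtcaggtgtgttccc
Mrpl27: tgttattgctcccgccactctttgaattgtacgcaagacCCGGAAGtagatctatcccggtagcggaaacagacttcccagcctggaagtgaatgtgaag
Mrps27: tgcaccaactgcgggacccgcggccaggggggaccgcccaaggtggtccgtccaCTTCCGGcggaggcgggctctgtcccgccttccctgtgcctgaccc

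Medians of the difference between the groups lay close together in members with and without a given set of letters, while counts by direction varied more. The median was 0.04 for the 18 members with the ETS letters and 0.035 for the 36 without. It was 0.033 for the 9 with the YY1 letters and 0.038 for the 45 without, and 0.034 and 0.038 for the 5 with and 49 without the NRF1 letters. The 29 with and 25 without the SP1 letters had 0.037 and 0.038. With the letters and without them, 13 of 18 and 26 of 36 members were higher for ETS, 5 of 9 and 34 of 45 for YY1, 5 of 5 and 34 of 49 for NRF1, and 23 of 29 and 16 of 25 for SP1. These splits were not tested. Of the promoters printed above, Mrpl32 and Mrps18a belong to genes with higher and Mrpl27 and Mrps27 to genes with lower mean values under HFD fathers.

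No mitochondrial ribosomal protein gene differed between the groups after adjustment over all 27342 probes. Limma called 0 of 67 members at an adjusted p of 0.05, as it did for all genes (0% of 14324), and the lowest adjusted p of a member was 0.454. At an unadjusted p under 0.05, 5 members were higher in HFD-father arrays (2.97% of all genes were) and 1 was lower (5.28% of all genes). With the array set as a block, these 6 members (8.25% of all genes) became 3 (6.72%). Differences ran from -0.19 to 0.15, and 15 of 67 members exceeded 0.1 in size, a count not set against that of all genes. The standard error of a member's difference lay between 0.043 and 0.112, and the 95% interval reached 0.135 to either side in the median member. In 37 of 67 members the interval included a difference of 0.2 in one direction, so changes of that size were not excluded for them.

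Small positive differences were more frequent than negative ones. Of the 67 members, 48 had a higher and 19 a lower mean in HFD-father arrays, with a median difference of 0.038, beside 0.0041 over all genes. All 67 probes were brighter than the median probe, however, and genes of that brightness had mostly positive differences in this table. Among the 7221 genes with mean levels between the lowest and the highest member (6.388 to 9.67), 65.6% were higher in HFD-father arrays with a median of 0.028, next to 71.6% and 0.038 for the members. After quantile normalization the members' median was 0.0138 with 40 of 67 higher. All genes then had a median of 0.0022 with 51% higher, and the genes in the members' range of levels had 0.008. After cyclic loess the members' median was 0.019 with 41 higher, beside 0.0053 and 52.6% for all genes. With each array centred on its median, 52 members were higher with a median of 0.064, and 62.8% of all genes were then higher with a median of 0.030, in place of 51.9% and 0.0041 as deposited.

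**Figure D1:**
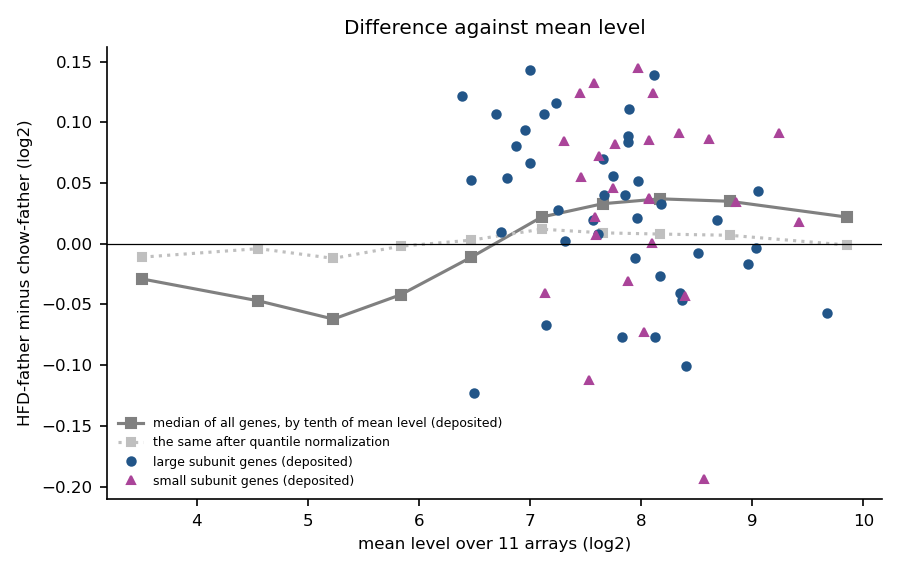
Difference between HFD-father and chow-father arrays (vertical, log2) against mean level over 11 arrays (horizontal, log2), for large subunit genes (circles), small subunit genes (triangles) and the median of all genes in each of 10 equal bands of mean level (squares, solid as deposited, dotted after quantile normalization). The all-gene median passes from negative values at low levels to 0.037 in band 8, and the members scatter on both sides of it.

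Within the brightness range the members did not stay on one side of the genes of their level. Genes were split by mean level into 10 bands of equal size, band 10 the brightest. In band 6 the 11 members had a median of 0.081 where all genes had 0.022, in band 7 the 20 members had 0.051 against 0.033, and in band 8 the 19 members had 0.021 against 0.037. The 8 members of band 9 had 0.008 against 0.035. At the ends of the range, the 6 members of band 5 had 0.053 against -0.011, and the 3 of band 10 had 0.018 against 0.022. The dimmer members thus lay above and the brighter members below the genes of their level. These bands share arrays and are descriptions without a test.

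The large and the small subunit differed little from one another. The 41 large subunit genes had a median of 0.033, with 28 higher and 13 lower, and the 26 small subunit genes had 0.042, with 20 higher and 6 lower. The difference of the medians was -0.0091, against a spread between arrays of 0.0379 (SD within groups) for the large minus small mean. It was 0.0002 after quantile normalization and 0.0083 in the first set of arrays alone, so its sign was not settled.

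Symbols and structures do not place every protein in the same subunit. In structures of the mammalian mitochondrial ribosome, the products of Mrps30 and Mrps18a sit in the large subunit. Counted there, the large subunit had 43 members with a median of 0.041 and the small subunit 24 with 0.037, which turned the order of the medians. The 41 members of bacterial protein families had a median of 0.034 with 28 higher, and the 26 members particular to mitochondria had 0.041 with 20 higher.

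**Figure D2:**
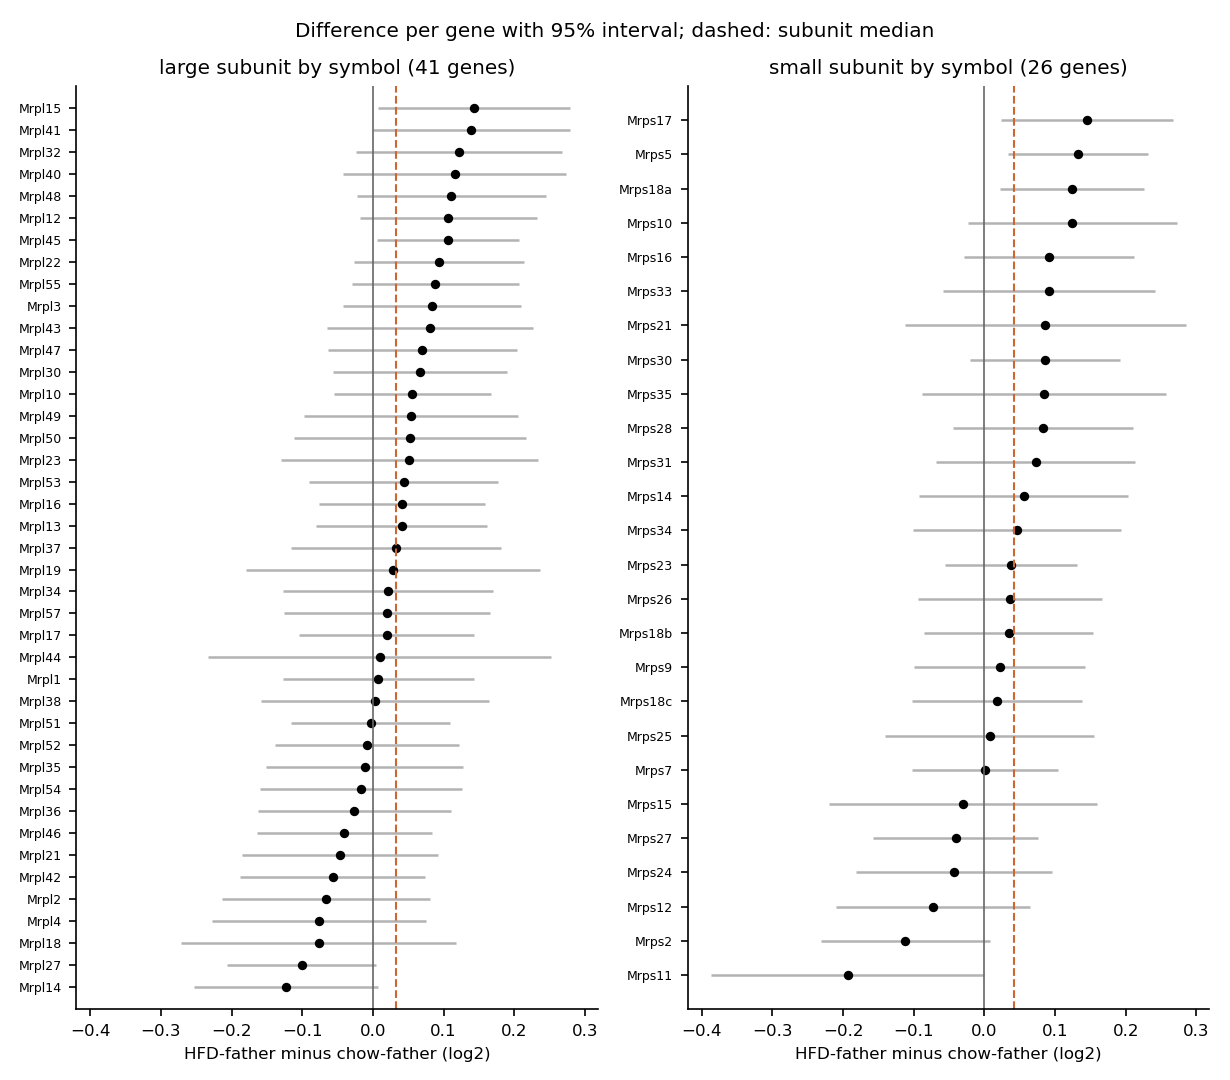
HFD-father minus chow-father difference (log2) with its 95% interval for each of the 41 large and 26 small subunit genes, sorted by size, with the subunit median dashed. Intervals of 5 genes lie wholly above 0, that of Mrps11 ends just below 0, and the medians of 0.033 and 0.042 nearly coincide.

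The subunits did not move together on every array. Each member's value was taken as a deviation from its own mean over 11 arrays and averaged over a subunit. On HFD-father arrays 1 to 5 the large subunit mean was -0.0342, -0.0025, 0.0389, 0.0331 and 0.0413, and the small subunit mean was -0.0175, 0.0079, -0.027, 0.0695 and 0.0597. On chow-father arrays the large subunit ran from -0.0391 to 0.0175 (median -0.012) and the small subunit from -0.049 to 0.019 (median -0.016). HFD-father 4 and 5 were high for both subunits, HFD-father 1 was low for both, and HFD-father 3 was high for the large and low for the small subunit. The groups overlapped in both subunits.

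The same arrays had the widest spread of values over all probes. HFD-father 4 and 5 had an interquartile range of 3.123 and 3.121, above the 2.93 to 3.057 of the other arrays, and on them 47 and 48 of 67 members exceeded their own mean. After quantile normalization, which removes differences in spread, the large subunit mean was 0.010 on each of these arrays and the small subunit mean 0.036 and 0.018. As deposited, the HFD-father and chow-father means were 0.0153 ± 0.0329 (SD, n = 5) and -0.0128 ± 0.0215 (SD, n = 6) for the large subunit and 0.0185 ± 0.0441 and -0.0154 ± 0.03 for the small. The gap was about as wide as the spread between arrays of a group, which was 0.0271 and 0.0369 (pooled SD). After quantile normalization the means were 0.0055 ± 0.0203 and -0.0046 ± 0.0166 for the large subunit and 0.0049 ± 0.0274 and -0.0041 ± 0.0303 for the small. The part of array spread in the members' values was not tested further.

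**Figure D3:**
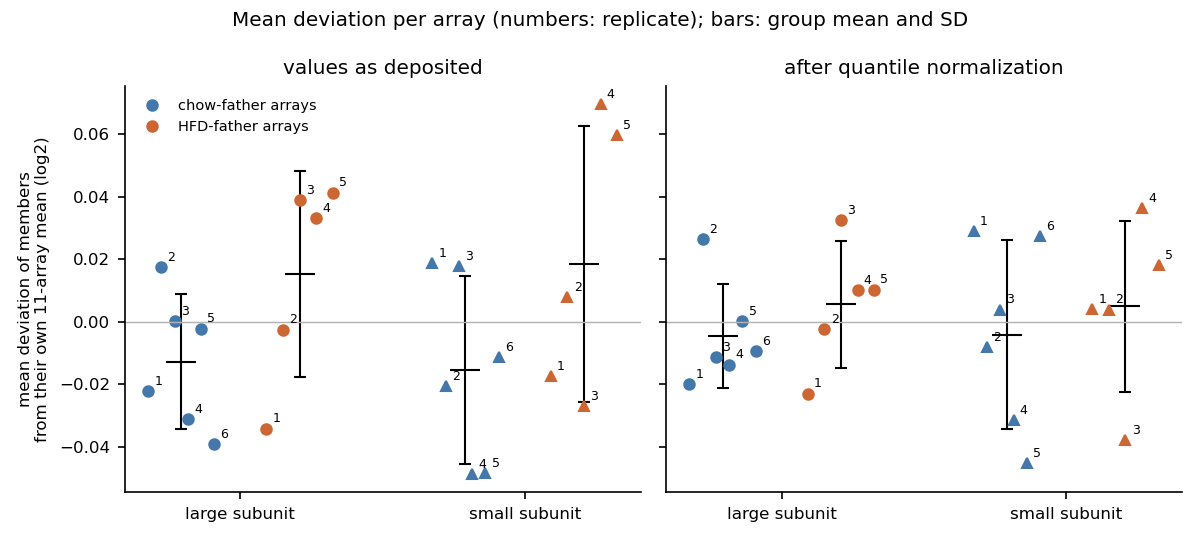
Mean deviation of large (circles) and small (triangles) subunit genes from their own 11-array means (log2) on each array, numbered by replicate, with group mean and SD, for deposited and for quantile-normalized values. HFD-father 4 and 5 are highest for the small subunit at 0.0695 and 0.0597, and after quantile normalization the group means lie closer together.

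Among small subunit genes, Mrps5 had the lowest p of all members. Its product is of the bacterial S5 family, which in bacteria takes part in accurate decoding. Chow-father arrays lay between 7.464 and 7.561 (median 7.511), and HFD-father arrays 1 to 5 at 7.567, 7.663, 7.606, 7.674 and 7.720. Every HFD-father array was above every chow-father array, the nearest by under 0.01. The difference was 0.13 ± 0.05 (SE, 95% interval 0.03 to 0.23, limma adjusted p = 0.454), 0.11 in the first set and 0.22 in the second, and 0.11 after quantile normalization.

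Mrps18a was the only other member whose groups did not overlap, so 2 members were higher without overlap (0.349% of all genes) and 0 were lower without overlap (0.538%). Chow-father arrays ran from 8.0 to 8.097 (median 8.057) and HFD-father arrays stood at 8.106, 8.168, 8.189, 8.273 and 8.151. The lowest HFD-father array was again HFD-father 1, within 0.01 of the highest chow-father array. The difference was 0.12 ± 0.05 (SE, adjusted p = 0.483), 0.15 in the first set and 0.06 in the second. Its paralogues of the S18 family, which occupy other positions in the ribosome, differed by 0.03 (Mrps18b, interval -0.09 to 0.15) and 0.02 (Mrps18c, interval -0.10 to 0.14).

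Mrps17, of an rRNA-binding bacterial family, lay between 7.822 and 7.994 (median 7.897) on chow-father arrays and at 7.962, 7.991, 8.042, 8.057 and 8.201 on HFD-father arrays. The groups overlapped in 2 HFD-father arrays, and HFD-father 5 was highest. The difference was 0.15 ± 0.06 (SE, adjusted p = 0.491), of which 0.08 remained in the first set. Mrps10, a protein of the small subunit's head, differed by 0.12 (adjusted p = 0.597), by 0.04 in the first set and by 0.37 in the second, and HFD-father 5 stood alone at 7.699, without which it was 0.08. Mrps30 differed by 0.09 (adjusted p = 0.618).

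By its brighter probe, Mrps11 had the largest difference of any member and the only negative one at an unadjusted limma p under 0.05 (0.04995). Its product belongs to the S11 family of the platform, where the messenger leaves the ribosome. Chow-father arrays ran from 8.438 to 8.996 (median 8.593) and HFD-father arrays were at 8.547, 8.526, 8.469, 8.406 and 8.340. All HFD-father values lay below the chow-father mean, chow-father 3 was highest, and the groups overlapped. The difference was -0.19 ± 0.09 (SE, adjusted p = 0.534), and -0.12 without chow-father 3.

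A further probe of Mrps11 did not share this difference. Its chow-father mean was 7.97 and its HFD-father mean 7.986, a difference of 0.017 ± 0.073 (SE, adjusted p = 0.962). RefSeq lists a processed copy under the symbol Mrps11-ps1, and copies named as pseudogenes or like genes exist for 23 of the 67 members, so a probe may also read a copy's transcript. The lower mean of Mrps11 thus rests on its brighter probe alone. Probe numbers of the members mostly follow chromosome order. That of the further probe falls among members on chromosome 1, where Mrps11 lies. The brighter probe's number falls between members on chromosomes 13 and 14. Whether either probe reads a copy was not tested. The probes of Mrpl40, Mrpl41 and Mrpl42, the other members with more than 1, gave close differences (0.12 and 0.11, 0.14 and 0.14, -0.06 and -0.05). The brighter probes of Mrpl40 and Mrpl41 and the further probe of Mrpl42 also have numbers among members on other chromosomes. For Mrpl41 the unadjusted limma p was 0.051 by the brighter and 0.034 by the further probe. Which members passed 0.05 unadjusted thus depends on the probe chosen.

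The other small subunit genes of lowest p on the negative side lay within overlapping groups. Mrps2, of the bacterial S2 family, differed by -0.11 (interval -0.23 to 0.01, adjusted p = 0.558), by -0.06 in the first set and by -0.28 in the second. Mrps12, which contributes to the decoding centre, differed by -0.07, the pentatricopeptide repeat protein gene Mrps27 by -0.04 and Mrps24, of the S3 family, by -0.04 (adjusted p from 0.749 to 0.865). Each moved with single arrays: Mrps12 was -0.035 without HFD-father 2, and Mrps27 was -0.015 without HFD-father 1, -0.021 without chow-father 3 and -0.066 without HFD-father 4. Mrps24 was 0.001 without HFD-father 3, -0.089 without HFD-father 1, -0.028 without chow-father 2 and -0.065 without chow-father 4.

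Among large subunit genes, Mrpl45 and Mrpl15 had the lowest p. Mrpl45 encodes a protein at the exit of the peptide tunnel that ties the ribosome to the inner membrane. Its chow-father arrays ran from 7.030 to 7.130 (median 7.078), and its HFD-father arrays were at 7.146, 7.129, 7.143, 7.277 and 7.218. The groups overlapped by a single array, HFD-father 2, and the difference was 0.11 ± 0.05 (SE, adjusted p = 0.515).

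Mrpl15, of the bacterial L15 family, was at 7.108, 7.077, 7.007, 7.098 and 7.105 on HFD-father arrays and between 6.821 and 7.108 (median 6.888) on chow-father arrays. Chow-father 1 and 6 reached the HFD-father values, while the other 4 chow-father arrays lay below all of them. The difference was 0.14 ± 0.06 (SE, adjusted p = 0.519). Mrpl41, a protein particular to mitochondria, differed by 0.14 (adjusted p = 0.534), with HFD-father 1 at 7.984 and the other HFD-father arrays between 8.212 and 8.263. Mrpl32, which must be cleaved by a mitochondrial protease before it joins the ribosome, differed by 0.12 (adjusted p = 0.598), by 0.05 in the first set and by 0.34 in the second.

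**Figure D4:**
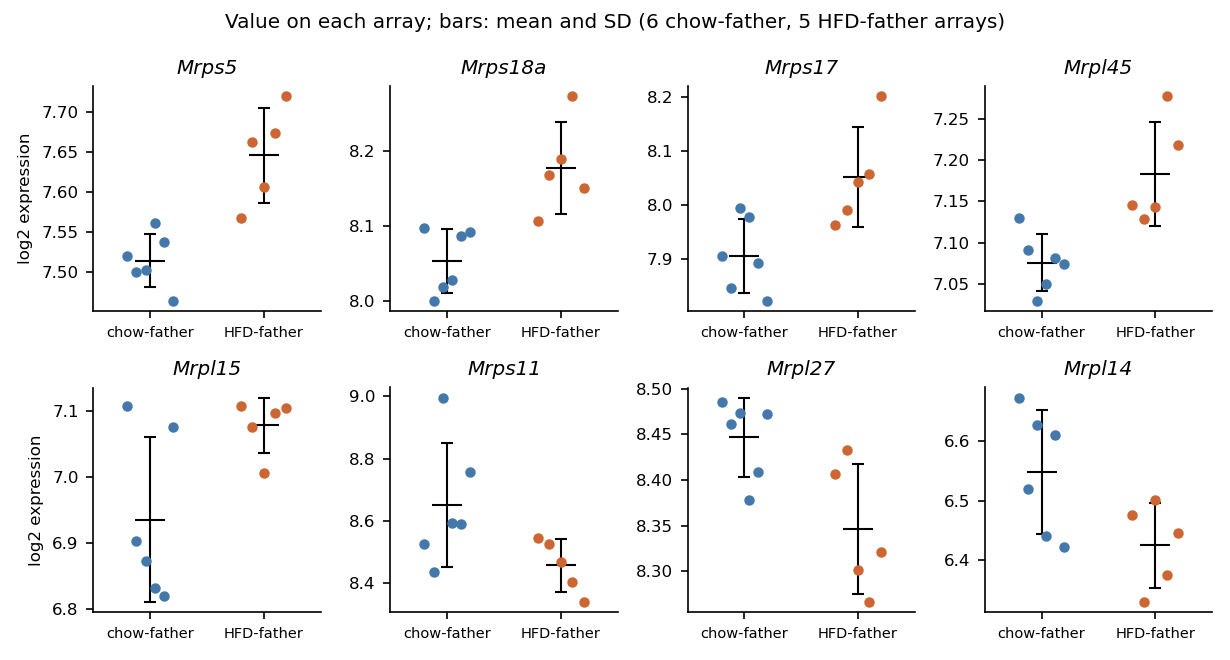
Log2 expression on each of the 6 chow-father and 5 HFD-father arrays for 8 members of low unadjusted p, with group mean and SD and a separate vertical scale for each gene. The groups are apart in Mrps5 and Mrps18a, by less than 0.01, and overlap in the other 6.

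Proteins of the stalk, which recruits translation factors to the large subunit, were read from 2 members of the named genes. Mrpl12, reported in mammals to bind the mitochondrial RNA polymerase as well, lay between 6.612 and 6.708 (median 6.646) on chow-father arrays and at 6.953, 6.669, 6.729, 6.657 and 6.774 on HFD-father arrays. HFD-father 1 was far above the rest, and the difference of 0.11 ± 0.06 (SE, adjusted p = 0.591) became 0.06 without it. Mrpl10, which anchors Mrpl12, differed by 0.06 (interval -0.06 to 0.17, adjusted p = 0.764), by 0.088 without HFD-father 2 and by 0.037 without HFD-father 3.

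Lower means under HFD fathers were found for Mrpl14 and Mrpl27. Mrpl14, at the face that meets the small subunit, was at 6.476, 6.330, 6.501, 6.375 and 6.445 on HFD-father arrays and between 6.422 and 6.672 (median 6.565) on chow-father arrays. Mrpl27, whose bacterial relative reaches the site of peptide bond formation, was at 8.407, 8.433, 8.301, 8.266 and 8.321, against 8.378 to 8.486 (median 8.466). The groups overlapped in both genes, with differences of -0.12 ± 0.06 (SE, adjusted p = 0.554) and -0.10 ± 0.05 (SE, adjusted p = 0.548). Mrpl4, Mrpl2, which lies at the peptidyl transferase centre, and Mrpl42 differed by -0.08, -0.07 and -0.06 (adjusted p from 0.763 to 0.804). Mrpl2 was -0.13 in the first set and 0.11 in the second. It was -0.01 without HFD-father 1 and -0.10 without chow-father 5. Mrpl4 was -0.034 without HFD-father 4 and -0.123 without HFD-father 3, and Mrpl42 was -0.021 without chow-father 2 and -0.034 without HFD-father 2.

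Mrpl44, a protein with a ribonuclease III fold near the tunnel exit, varied most between arrays, with an SD of 0.197 over 11 arrays where the median member had 0.098. Its chow-father arrays alone spanned 6.377 to 7.041, with chow-father 4 lowest and chow-father 1 highest. HFD-father arrays lay inside that range at 6.835, 6.750, 6.500, 6.779 and 6.853. Mrpl3, linked in humans with Mrpl44 to inherited mitochondrial disease, differed by 0.08 (interval -0.04 to 0.21, adjusted p = 0.682), and by 0.05 without chow-father 1.

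Ribosomal proteins that carry other symbols and the factors that work with the ribosome gave the same picture of small differences, none past the adjusted threshold. Of 6 listed mitochondrial ribosomal proteins with other symbols, 5 were measured, with a median of 0.058 and 3 higher. The largest was Chchd1, of the small subunit, at 0.19 ± 0.07 (SE, adjusted p = 0.464), and Dap3, the GTP-binding protein of the small subunit, differed by 0.10 (adjusted p = 0.534). Translation factors, with 10 of 17 listed genes measured, had the highest median, 0.073, and 0.079 after quantile normalization. Of the 10, 8 were higher and 0 had an unadjusted limma p under 0.05 (8.25% of all genes). Guf1, related to bacterial LepA, and Gfm1, the elongation factor that moves the ribosome along the messenger, both differed by 0.11 (adjusted p = 0.615 and 0.685). Gfm1 was 0.042 without HFD-father 1.

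Genes of ribosome assembly and rRNA modification had a median of 0.0027, with 12 of 24 higher. Gtpbp10, a GTPase that assembles the large subunit, had the lowest p of these lists (0.18 ± 0.06 SE, unadjusted p = 0.0107, adjusted p = 0.446), and Mterf3 differed by 0.12. The list of mitochondrial aminoacyl-tRNA synthetases, which charge tRNAs, had a median of -0.0032 with 7 of 15 higher. Fars2 and Nars2 differed by 0.12 and 0.09. This list also holds Gatc and Qrsl1, which are not synthetases, and Kars1 and Gars1, which also encode the cytosolic enzymes. Genes of mitochondrial DNA maintenance and transcription had 0.037 with 16 of 23 higher. Tfb2m, which opens the promoter for the mitochondrial RNA polymerase, differed by 0.16 ± 0.06 (SE, adjusted p = 0.492) and Pnpt1, an RNA-degrading enzyme, by 0.10. The cytosolic ribosome, read for comparison, had medians of 0.013 over 42 large subunit and 0.00 over 27 small subunit genes. After quantile normalization these were -0.0069 and -0.0149. Ribosomal proteins with other symbols then had a median of 0.029 and DNA maintenance and transcription genes 0.025. Assembly genes then had -0.0074 and synthetases -0.0231. With single replicates left out, the medians of assembly genes ran from -0.0124 to 0.0287, of synthetases from -0.023 to 0.0437, and of the cytosolic large and small subunit from -0.0183 to 0.0392 and from -0.0222 to 0.0365, so none of these 4 had a settled sign. Without HFD-father 5 the median of ribosomal proteins with other symbols was 0.0313, and without chow-father 6 that of the DNA maintenance and transcription genes was 0.0234.

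**Figure D5:**
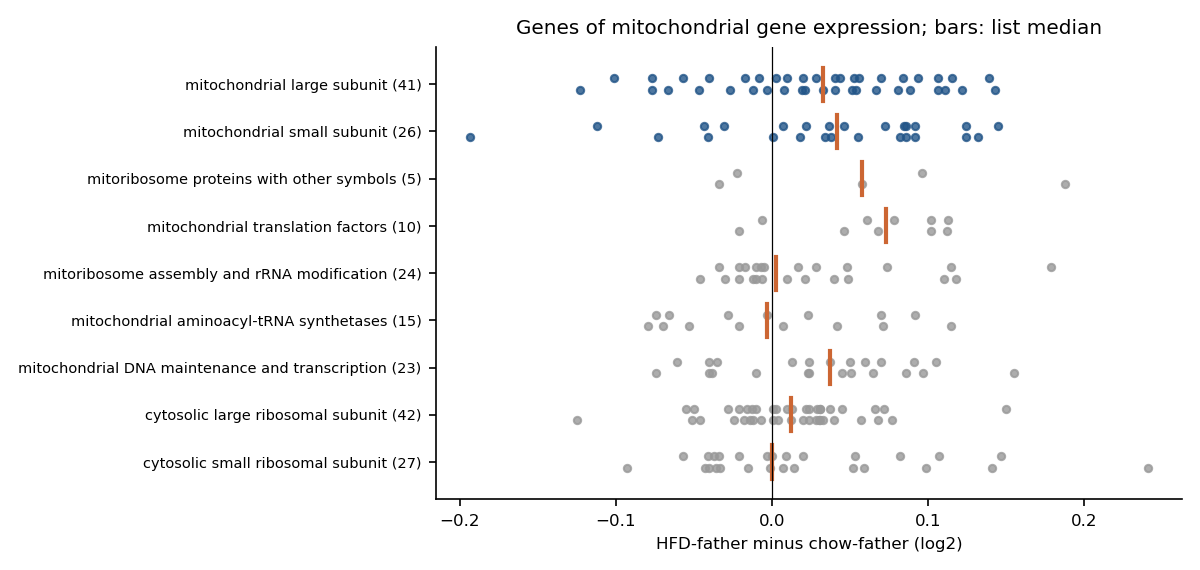
HFD-father minus chow-father difference (log2) of each gene in the mitochondrial ribosomal subunits (dark points) and in related lists (grey points), with the number of genes in parentheses and list medians as bars. Medians run from -0.0032 for the list of aminoacyl-tRNA synthetases to 0.073 for translation factors.

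Markers of other cell types varied more between arrays than the members did, and in a tissue sample fewer cells of a type and less RNA per cell cannot be told apart. Acinar markers were higher in HFD-father arrays for 22 of 24 measured genes (median 0.20), with list means from -1.029 (chow-father 4) to 0.468 on chow-father and from -0.176 to 0.455 on HFD-father arrays. They were higher for 24 of 24 in the first set (median 0.30) but for 3 of 24 in the second (median -0.08), and the median over all arrays was 0.0113 without chow-father 4 and 0.13 without HFD-father 1. Endothelial markers were higher for 10 of 10 (median 0.11), from -0.201 to 0.111 and from -0.139 to 0.283, with a median of 0.055 without HFD-father 1. Ductal, lymphocyte, macrophage, and stellate and fibroblast markers were higher for 4 of 8, 9 of 14, 7 of 13 and 8 of 10, and without HFD-father 1 the lymphocyte median of 0.08 became -0.04. With the acinar mean as a covariate the large and small subunit medians were 0.034 and 0.038, beside 0.033 and 0.042 without it. Without HFD-father 1, the array of high lymphocyte markers, the medians were 0.044 and 0.055, and 12 members had an unadjusted p under 0.05 (11.2% of all genes) in place of 6 (8.25%). The part of these other cells in single members was not tested.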

How the data were processed

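Total RNA of islets was hybridised to 11 one-colour arrays, labelled with biotin by the Affymetrix protocol per the labels' protocols. The authors deposited a gene-level table of log2 values, normalized between arrays. The submitters' processing notes list RMA and MAS5, with neither version nor role, and background correction is not given in the sources used here. The log2 scale was read from the values. An exon-level table, whose 8 columns of sample values were not used, is not paired with genes here.

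Of 27342 probes, 15097 had 1 symbol, 323 several and 11922 were not listed. Symbols were matched by gene number to RefSeq GRCr8 for 15067. All probes were fitted with limma 3.58.1 (lmFit, eBayes, R 4.3.3), without covariate or filter, two-sided, with Benjamini-Hochberg adjustment over all probes. This fit did not account for the centring per array set, so its standard errors, intervals and p-values may be somewhat too small. Recovery of known differences was checked on simulated data, but only for differences larger than that of any member. Figures used matplotlib 3.10.9 under Python 3.11.15. The number of arrays limits precision.

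The members and lists were chosen with earlier results of these data known. Named genes were, per subunit, the 5 of lowest p in each direction and the one of largest SD, a few fixed members, and 2 genes of lowest p in each mitochondrial list; the members Mrpl40, Mrpl46, Mrpl47, Mrps18b and Mrps18c were named after their values were seen. Alternatives covered normalization, filter, blocks, weights, covariate, probe choice, subunit assignment and each replicate left out.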

Additional observations from a re-analysis of the deposited data

Results flagged for a closer look

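Among 72 groups of values checked (named genes and subunit means, each in both groups of arrays), 5 held an array whose gap to its nearest neighbour was large for the group's range. Chance flags about 5% of such groups. Mrpl41 was 7.984 on HFD-father 1, where the next HFD-father array was at 8.212. Mrpl2 was 6.997 on chow-father 5, with the next at 7.178. Mrps10 was 7.699 on HFD-father 5, with the next at 7.496. Mrps30 was 8.119 on chow-father 1, with the next at 8.024 and the other 4 close to it. The large minus small subunit mean was 0.0659 on HFD-father 3, where the other HFD-father arrays ran from -0.036 to -0.010.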

How the results depend on the processing

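Limma called 0 members at an adjusted p of 0.05 in every alternative fit with a test (the second set of 3 arrays, the structural subunits and the mean over members had none), with lowest adjusted p from 0.255 (without HFD-father replicate 1) to 0.955 (first set of 8 arrays only). The number of members at an unadjusted p under 0.05 was 6 (8.25% of all genes), and 3 with the array set as a block (6.72%), 1 in the first set only (4.29% of all genes) and 11 with array weights (10.9% of all genes). Leaving out each replicate in turn gave 2 to 12 members, the fewest with HFD-father replicate 5 and the most with HFD-father replicate 1 left out, where 5.02% and 11.2% of all genes were called. It was 3 without HFD-father replicate 4 (6.41%) or chow-father replicate 5 (7.72%) and 4 without chow-father replicates 3 (7.99%) or 6 (7.07%). With the replicate number as a block it was 3 (6.17%), but only 1 of 5 same-numbered pairs deviated together (correlation above 0.1), so the numbers were not taken to pair the samples. The large subunit median ran from 0.018 (without HFD-father 5) to 0.044, the small from 0.027 (without chow-father 5) to 0.060 and their difference from -0.033 to 0.0075 over the left-out replicates. In the second set of 3 arrays, an alternative added after the data were seen and without a replicate of HFD-father, they were 0.063, 0.127 and -0.064. Quantile normalization lowered both medians to 0.014, cyclic loess to 0.019 and 0.020, and median centring raised them to 0.059 and 0.068, where all genes also shifted. Mrpl44 (0.01) turned to -0.044 in the first set and -0.041 with the acinar covariate, and ran from -0.062 to 0.071 over left-out replicates. Mrps24 ran from -0.089 to 0.001. The causes were not tested. No background probes were told apart, so signal over background is unknown.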

Other observations

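Many members have a neighbour that starts close by on the opposite strand and runs the other way. In RefSeq GRCr8, 17 of the 54 members with a start region (31.5%) had a protein-coding gene starting within 1000 bases upstream in the opposite direction, against 8.34% of the 11786 genes measured here that have a protein-coding start region and 7.23% of all 18999 such genes. Members Mrpl46 and Mrps11 are such a pair, with starts 234 bases apart. They differed by -0.04 and -0.19 between the groups, but the further probe of Mrps11 differed by 0.017. The other partners include Ndufb5, a subunit of respiratory complex I, beside Mrpl47, the proteasome gene Psma2 beside Mrpl32 and the DNA endonuclease gene Eme1 beside Mrpl27. In these 3 pairs the member differed by 0.07, 0.12 and -0.10 and the partner by 0.001, -0.01 and -0.04, none past the adjusted threshold (limma, adjusted p of the partners from 0.919 to 0.998). Of the 14 members with a measured partner, 11 differed in the same direction as the partner, with Mrpl46 and Mrps11 each counted. No such count was taken for other gene pairs. The counts of neighbours are a property of the annotation, and none of these counts was tested.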
